A study of Mus musculus with 30 samples.

Results

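Adenosine and kynurenine are small molecules that dampen T cell and NK cell activity in tumors, and this account follows the genes of the enzymes and receptors that make, remove or sense them. The members were 8 listed genes, Entpd1, Nt5e, Ada, Adora2a and Adora2b of the adenosine pathway and Ido1, Tdo2 and Kynu of the tryptophan pathway, and all 8 were found among the 53431 genes of the count table. They were followed in 30 mRNA libraries of CT-26 and Colon 26, 2 mouse colorectal carcinoma lines from BALB/c mice that the study compared because they respond differently to anti-PD-1 antibody. Each line was sequenced as 3 cell cultures and as 4 tumors at each of the nominal sizes 100, 400 and 800 mm3, grown from cells injected under the flank skin of female BALB/c hosts. No mouse age was given in the sources used here, and no label names an antibody for any tumor. No source says whether the libraries of a group came from separate passages of the cells, so p-values measure only the spread between these samples.

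The tumors measured 103 to 146 mm3 in the smallest CT-26 group and 103 to 125 mm3 in the smallest Colon 26 group, and up to 939 and 963 mm3 in the largest groups. Libraries held 21384730 to 39722586 counts. The 3 Colon 26 cultures were sequenced deeper (36042940 to 39722586 counts) than the 3 CT-26 cultures (21384730 to 27856380 counts) and carry library numbers of another series, so the model and the library series cannot be told apart in culture. The library series is likewise not separable in Colon 26 tumors against Colon 26 culture, or where the model difference is compared between tumor and culture. Bulk tumors contain host cells: the leukocyte marker Ptprc was at most 0.206 CPM (counts relative to library size, with 1 set of scaling factors over all 30 libraries) in culture and 43.7 to 188 CPM in tumors, and fewer cells of a type and less RNA per cell cannot be told apart. The labelled origin was weakly marked in both lines, since 1 of 5 colon epithelial markers was at 0 in all cultures of each line and their summed level was 15.7 to 16.8 CPM in CT-26 and 6.15 to 6.61 CPM in Colon 26. Krt18 alone averaged 15.7 CPM in CT-26 cultures and had at most 3 counts in each Colon 26 culture. Of the 3 such markers tested between the cultures, 1 was higher and 2 were lower in Colon 26 by the rule for calls given below. Summed skeletal muscle markers exceeded 300 CPM in 3 tumors, CT-26 100 mm3 tumor 4 (388 CPM), Colon 26 100 mm3 tumor 2 (1033 CPM) and Colon 26 400 mm3 tumor 1 (1979 CPM), and tests without them are given where they change a call. B cell markers summed to at most 0.596 CPM in any library, dendritic cell markers to 7.47 to 28.5 CPM in tumors, adipocyte markers to at most 6.08 CPM, endothelial markers to 51.6 to 175 CPM in tumors, and keratinocyte markers to at most 2.98 CPM except in 1 CT-26 800 mm3 tumor at 68.7 CPM.

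In the adenosine pathway, ATP released by stressed cells is cut outside the cell by CD39, the product of Entpd1, to AMP. CD73, the product of Nt5e, turns AMP into adenosine. Adenosine deaminase (Ada) removes adenosine by turning it into inosine, and the receptors encoded by Adora2a and Adora2b raise cyclic AMP in the cells that sense it, which in T cells weakens activation. In the tryptophan pathway, the dioxygenases Ido1 and Tdo2 open the tryptophan ring to start kynurenine synthesis, Ido1 being a well-known target of interferon gamma and Tdo2 best known from liver, and kynureninase (Kynu) acts further down the route.

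All 8 genes are annotated as protein coding, and in GENCODE M21 on GRCm38 no exon of another gene overlaps an exon of any of them. Entpd1 lies at chr19:40612366-40741602 (+ strand), Nt5e at chr9:88327197-88372092 (+), Ada at chr2:163726584-163750239 (−), Adora2a at chr10:75316877-75334784 (+) and Adora2b at chr11:62248984-62266453 (+). Ido1 lies at chr8:24584136-24597009 (−), Tdo2 at chr3:81957090-81976202 (−) and Kynu at chr2:43555329-43682715 (+). Ada and Adora2b were the members with at least 17 counts in every one of the 6 cultures, where Tdo2 held 4 to 15 counts. The 250 bases before the RefSeq starts of Ada and Adora2b (GRCm38.p6) are shown for that reason. Capitals mark GGGCGG or its reverse complement CCGCCC, the core of the GC box. The first runs over chr11:62248734-62248983 on the + strand and the second over chr2:163750240-163750489 on the − strand.
Adora2b: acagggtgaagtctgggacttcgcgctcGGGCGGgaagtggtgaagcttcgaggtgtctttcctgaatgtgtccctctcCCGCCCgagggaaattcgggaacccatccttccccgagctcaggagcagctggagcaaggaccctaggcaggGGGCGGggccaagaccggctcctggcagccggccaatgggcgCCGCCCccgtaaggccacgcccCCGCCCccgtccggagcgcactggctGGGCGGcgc
Ada: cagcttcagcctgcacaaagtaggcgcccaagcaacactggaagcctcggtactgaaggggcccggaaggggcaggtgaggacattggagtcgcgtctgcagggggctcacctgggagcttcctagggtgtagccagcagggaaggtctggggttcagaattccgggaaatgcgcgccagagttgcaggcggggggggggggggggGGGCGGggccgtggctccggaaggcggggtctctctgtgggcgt
The Adora2b window held 6 such matches over both strands at a GC content of 69.6%, and the Ada window held 1 at 67.2%. Of 32851 RefSeq windows of the same length, 32.7% held GGGCGG on either strand, and their median GC content was 52.4%. Windows of Nt5e (4 GGGCGG), Tdo2 (no GGGCGG, and 1 TATAAA, a motif in 12.4% of windows) and Entpd1 (no match in 2 windows) were also searched, and the windows of Ido1, Adora2a and Kynu were not used here.

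The order of the members in tumors was read on FPKM (fragments relative to gene length and library size), which allows genes of different length to be compared. In CT-26 tumors of 100 mm3, Entpd1 was highest at 10.3 ± 5.56 FPKM (SD, n = 4), followed by Ada at 6.89 ± 1.98, Ido1 at 3.28 ± 2.88, Nt5e at 2.59 ± 0.929, Adora2b at 2.26 ± 0.585, Adora2a at 0.841 ± 0.161, Kynu at 0.129 ± 0.0924 and Tdo2 at 0.0737 ± 0.0301 FPKM. The ranges of neighbours in that order overlapped except between Adora2b and Adora2a and between Adora2a and Kynu. In Colon 26 tumors of 100 mm3, Entpd1 was highest at 11.9 ± 3.19 FPKM, followed by Nt5e at 6.97 ± 0.945, Ada at 5.27 ± 0.618, Adora2b at 3.74 ± 0.373, Adora2a at 0.459 ± 0.0631, Ido1 at 0.194 ± 0.205, Tdo2 at 0.151 ± 0.0380 and Kynu at 0.0944 ± 0.0557 FPKM. There the first 5 genes did not overlap each other, whereas neighbours from Adora2a onward did. By mean FPKM at 100 mm3, Ido1 thus stood above Nt5e and both adenosine receptors in CT-26 and below all 3 in Colon 26. In CT-26 tumors of 400 and 800 mm3, mean Ido1 was below Nt5e, at 2.20 against 2.39 FPKM and 1.68 against 3.17 FPKM.

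**Figure D1:**
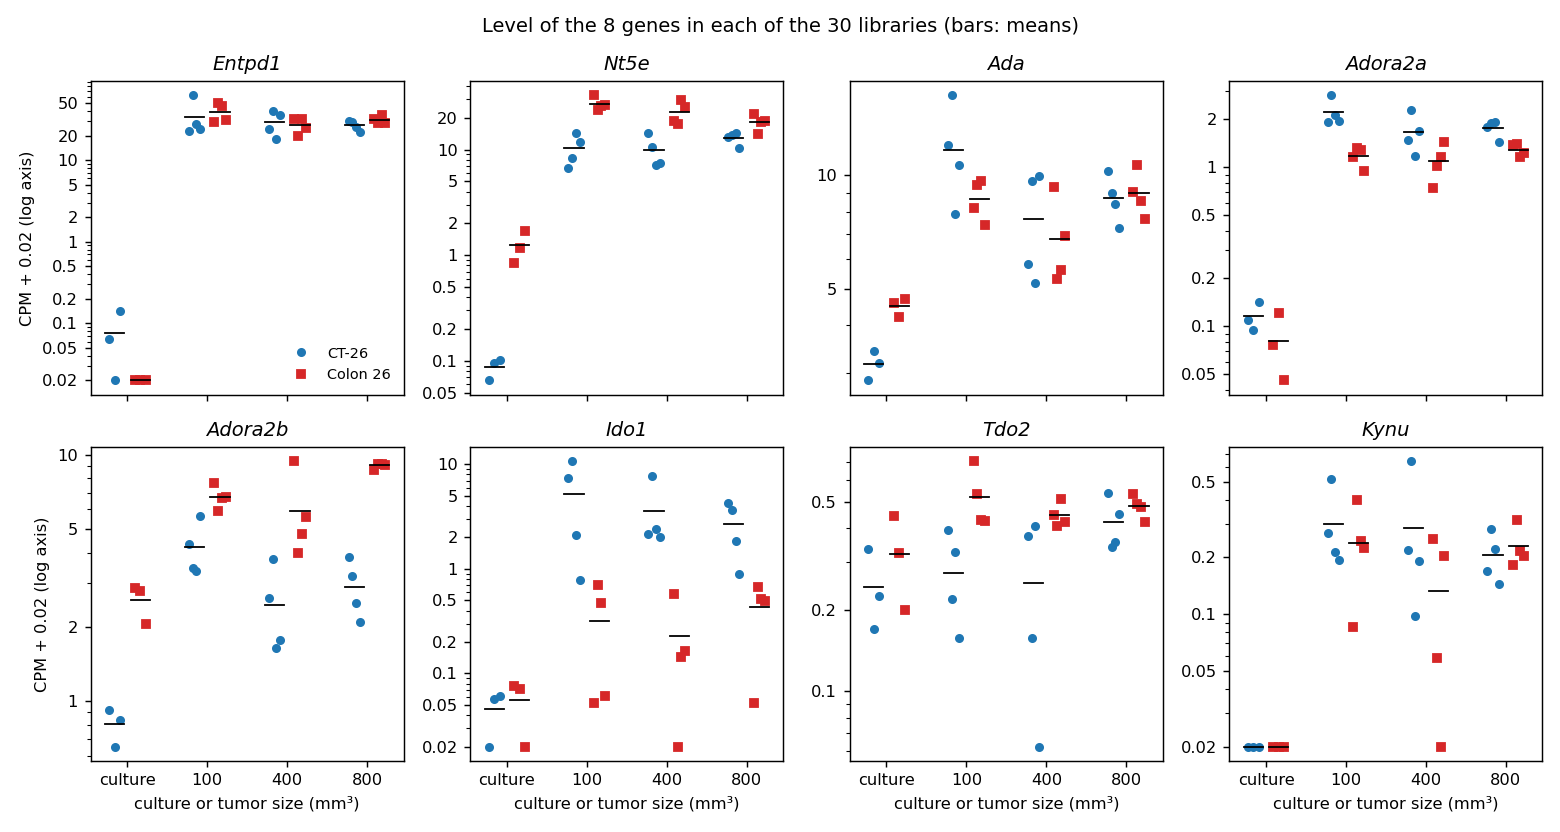
Level of each of the 8 genes in each of the 30 libraries, as CPM + 0.02 on a log axis, by culture or nominal tumor size (CT-26 blue circles, Colon 26 red squares, bars for group means). Ido1 is at 0.756 to 10.7 CPM in CT-26 tumors and at 0 to 0.676 CPM in Colon 26 tumors, and Entpd1 at 18.3 to 62.2 CPM in tumors of either line.

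The first comparison asked whether the 2 lines differ in culture, without cells of a host animal. Nt5e and Adora2b were higher in Colon 26, and the other members were at or near the detection limit or, for Ada, below the fold change threshold. Macrophage markers summed to 58.6 to 67.9 CPM in CT-26 cultures and 3.96 to 4.97 CPM in Colon 26 cultures, with 2 of 3 tested DE and lower in Colon 26. In the CT-26 cultures Csf1r and C1qa averaged 0.443 and 0.486 CPM, and Adgre1 held at most 3 counts in each. The sum there was thus mostly Cd68 and Mrc1. The part of these markers in the culture differences was not tested. Genes were called differentially expressed (DE) where edgeR's quasi-likelihood test gave a Benjamini-Hochberg adjusted p no higher than 0.1 and the log2 fold change was 1 or more in either direction. By that rule 2 of the 3 members tested were DE, against 22.9% of 14334 genes. Nt5e passed the filter on low counts only through the Colon 26 cultures, where it is high, so this count is a description of the genes that passed. Nt5e had 1, 2 and 2 counts in the CT-26 cultures and 29, 46 and 65 counts (0.819, 1.16 and 1.67 CPM) in the Colon 26 cultures. The groups do not overlap, and the CT-26 cultures are under the floor of 3 counts per library. Against that floor, mean Nt5e was at least 9.0-fold higher in Colon 26 (edgeR adjusted p = 8.3e-07). Adora2b was at 0.901, 0.635 and 0.822 CPM in CT-26 and at 2.85, 2.77 and 2.03 CPM in Colon 26. Every Colon 26 culture was above every CT-26 culture, a log2 fold change of 1.67 ± 0.23 (SE, edgeR adjusted p = 5.4e-06).

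Ada was at 2.84, 3.40 and 3.16 CPM in the CT-26 cultures and at 4.57, 4.19 and 4.68 CPM in the Colon 26 cultures. These groups do not overlap either, with a log2 fold change of 0.48 ± 0.12 (edgeR adjusted p = 0.0021), below the fold change threshold. The other 5 members did not pass the filter on low counts in culture. Entpd1 had 0 to 3 counts in CT-26 and 0 in Colon 26, Adora2a had 1 to 4 counts, Ido1 had 0 to 2 counts and Kynu had 0 counts in all 6 cultures, where 3 counts are the upper limit that a count of 0 allows. Tdo2 was low but above that limit, with 4 to 7 counts in CT-26 and 7 to 15 counts in Colon 26.

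The second comparison asked how tumors of 100 mm3 differ from the cultured cells they came from. Entpd1, Nt5e, Ada, Adora2a and Adora2b were DE and higher in tumors of both lines, and Ido1 in those of CT-26, which makes 6 of the 6 members tested in CT-26 (32.2% of 15370 genes were DE and 22.2% DE and higher) and 5 of 6 in Colon 26 (26.9% of 15946 genes and 20.8%). Entpd1, Nt5e, Adora2a and Ido1 in CT-26 and Entpd1 and Adora2a in Colon 26, at 0 to 4 counts per culture, passed the filter on low counts only through the tumors where they are high, so these counts are a description of the genes that passed. Entpd1 was at 22.6, 62.2, 28.0 and 23.7 CPM in CT-26 tumors and at 29.6, 49.6, 45.4 and 31.0 CPM in Colon 26 tumors of that size. Against cultures under the floor, these levels were at least 253-fold higher in CT-26 (edgeR adjusted p = 1.5e-05) and at least 459-fold higher in Colon 26 (edgeR adjusted p = 1.3e-06). Ptprc and all 5 T cell markers were DE and higher in tumors of both lines as well. So were all endothelial (3), skeletal muscle (3), NK cell (2) and dendritic cell (4) markers. In CT-26 and Colon 26, 4 and 5 of 5 macrophage markers and 2 and 3 of 3 fibroblast markers were DE and higher. The part of leukocytes and other host cells in these differences was not tested.

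Nt5e was at least 76.5-fold higher in CT-26 tumors than in CT-26 culture (edgeR adjusted p = 3.8e-06). In Colon 26, where culture was above the floor, its log2 fold change was 4.54 ± 0.21 (edgeR adjusted p = 1.3e-07). Mean Adora2a rose at least 16.2-fold against that floor in CT-26, where the cultures held 2 to 3 counts (edgeR adjusted p = 9e-06). In Colon 26, where the cultures held 2, 4 and 1 counts, Adora2a rose by 4.24 ± 0.37 on the log2 scale (edgeR adjusted p = 7.5e-06). Adora2b rose by 2.40 ± 0.27 in CT-26 and 1.48 ± 0.15 in Colon 26 on the log2 scale (edgeR adjusted p = 8.3e-05 and 2.1e-05).

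Ada rose by 1.89 ± 0.25 on the log2 scale in CT-26 tumors (edgeR adjusted p = 2e-04) and by 1.03 ± 0.12 in Colon 26 tumors (edgeR adjusted p = 4.1e-05). The Colon 26 value sits at the fold change threshold and fell below it, at 0.99, 0.99 and 0.98, without Colon 26 100 mm3 tumor 2, tumor 3 or Colon 26 culture 2. The mean of Ido1 rose at least 38.6-fold in CT-26 (edgeR adjusted p = 0.0015), with tumors at 7.39, 10.7, 2.07 and 0.756 CPM over a culture floor of 0.135 CPM. Its fitted log2 fold change was 7.35 with all tumors and 6.70 without CT-26 tumor 2. In Colon 26 it did not pass the edgeR filter on low counts: tumors had 1, 25, 12 and 1 counts against 2, 2 and 0 in culture, a group mean at least 3.53-fold above the floor that rests on 2 of 4 tumors, and DESeq2, which tested it, called it (adjusted p = 0.03). Kynu, at 0 counts in every culture, had a mean in tumors of 100 mm3 at least 2.05-fold above the culture floor in CT-26 and at least 2.57-fold in Colon 26. Single tumors held 5 to 15 counts in CT-26 and 2 to 14 in Colon 26. Of these, Colon 26 tumor 1, at 0.0653 CPM, was under the culture floor of 0.0847 CPM. Kynu did not pass the edgeR filter there, and DESeq2 called it in both lines (adjusted p = 0.0015 and 0.00067). Tdo2 in Colon 26 had a log2 fold change of 0.83 ± 0.35 (edgeR adjusted p = 0.057), below the threshold, and without Colon 26 culture 1 it was DE at 1.13.

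The model difference itself was compared between tumor and culture by an interaction term, which was DE for 17.6% of 16501 genes. For Nt5e the model difference in tumors of 100 mm3 was smaller than that in culture by 2.66 ± 0.66 on the log2 scale (coded as tumor minus culture, −2.66, edgeR adjusted p = 0.005). This sign rests on a fold scale: on log2(FPKM + 1), which damps low values, the term was 0.83 (limma adjusted p = 0.01), and on log2(FPKM + 0.1) it was −0.30 (limma adjusted p = 0.53). For Ada and Adora2b the term was −0.91 ± 0.28 and −0.98 ± 0.30 (edgeR adjusted p = 0.016 for both), below the fold change threshold. By the adjusted p alone 3 of 7 members passed, against 51% of genes. Terms for Entpd1, Adora2a, Ido1 and Tdo2 had adjusted p of 0.26 to 0.85 in edgeR, and Kynu did not pass the filter on low counts.

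The third comparison, Colon 26 against CT-26 at each tumor size, asked how the tumors of the models differ. Ido1 was lower and Adora2b and Nt5e were higher in Colon 26 tumors, while Entpd1 and Ada were not called at any size. DE members were 3 of 7 tested at 100 mm3 (13.2% of 15406 genes were DE), 3 of 7 at 400 mm3 (14.3% of 15241 genes) and 2 of 7 at 800 mm3 (14.1% of 15521 genes). Ido1, at 0 to 25 counts per Colon 26 tumor, passed the filter on low counts only through the CT-26 tumors, where it is high. Tdo2 at 100 mm3, at 4 to 9 counts per CT-26 tumor, passed only through the Colon 26 tumors. These counts of members are therefore a description of the genes that passed. By the adjusted p alone, 5 members passed at 100 mm3 (56.5% of genes) and 4 at 800 mm3 (59.4%).

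**Figure D2:**
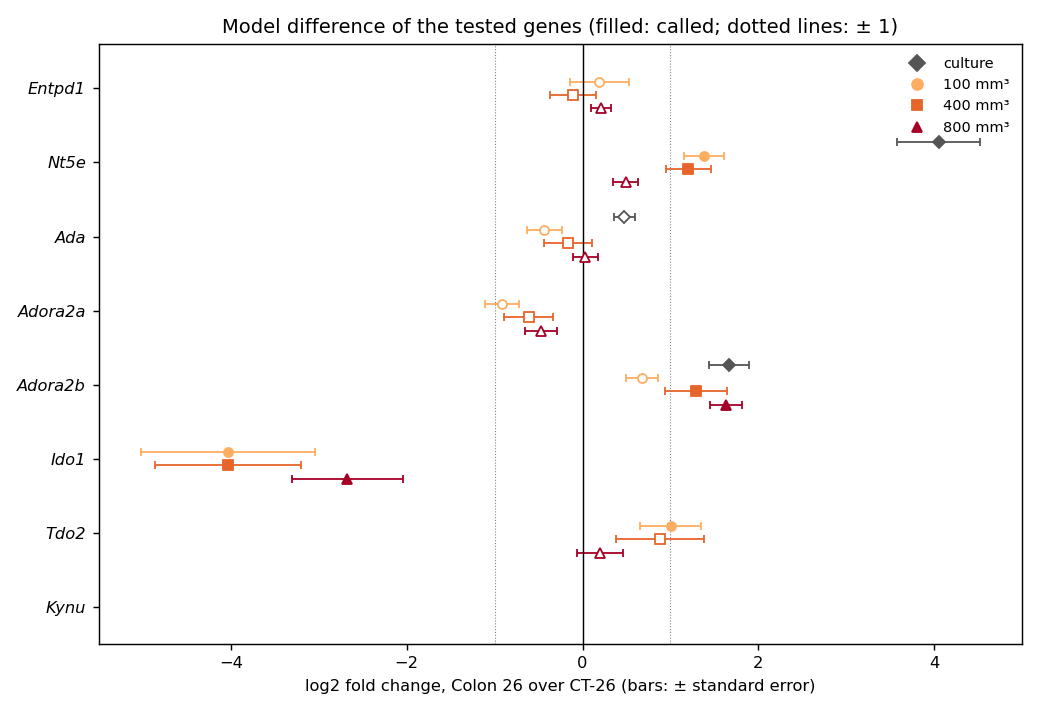
Log2 fold change of Colon 26 over CT-26 for each tested gene in culture and at each tumor size, with standard errors as bars, filled markers for DE genes and dotted lines at the fold change threshold of 1. Ido1 lies at −4.04, −4.04 and −2.68 in tumors of 100, 400 and 800 mm3, and Adora2b at 0.68, 1.29 and 1.63. Kynu did not pass the filter on low counts.

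Ido1 was at 7.39, 10.7, 2.07 and 0.756 CPM in CT-26 tumors of 100 mm3 and at 0.0327, 0.676, 0.447 and 0.0404 CPM in Colon 26 tumors of that size. At 400 mm3 it was at 2.13, 7.75, 2.40 and 2.0 CPM in CT-26 and at 0.559, 0, 0.123 and 0.145 CPM in Colon 26. At 800 mm3 it was at 4.27, 3.66, 1.81 and 0.865 CPM in CT-26 and at 0.0322, 0.649, 0.491 and 0.475 CPM in Colon 26. The lowest of the 12 CT-26 tumors, at 0.756 CPM, was above the highest of the 12 Colon 26 tumors, at 0.676 CPM. The log2 fold change was −4.04 ± 0.99 at 100 mm3, −4.04 ± 0.83 at 400 mm3 and −2.68 ± 0.63 at 800 mm3 (edgeR adjusted p = 0.0088, 0.004 and 0.005). Single tumors moved its size but not its call: at 100 mm3 it was −3.42 without CT-26 tumor 2 and −4.88 without Colon 26 tumor 2, and at 400 mm3 −3.33 without CT-26 tumor 2 and −5.21 without Colon 26 tumor 1. The fall in Colon 26 was thus 16.4-fold, 16.4-fold and 6.39-fold at the 3 sizes, and the Colon 26 tumors held 0 to 25 counts each.

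Some interferon-related genes were lower in Colon 26 tumors beside Ido1. Of a list of 5 (Ifng, which encodes interferon gamma, and Irf1, Cxcl9, Cxcl10 and Gbp2, which it induces), 3 were DE and lower at 100 mm3, 2 at 400 mm3 and 1 at 800 mm3, where 7.06%, 7.79% and 7.62% of all genes were. They had median log2 fold changes of −1.52, −0.95 and −0.48 against medians of 0.00, 0.03 and −0.01 over all genes tested. Gbp2, a guanylate-binding protein and the gene of the list called at every size, fell by 2.48 ± 0.75, 2.77 ± 0.27 and 1.92 ± 0.34 on the log2 scale (edgeR adjusted p = 0.022, 7.7e-05 and 0.00099). Both NK cell markers, Ncr1 and Klrb1c, were DE and lower in Colon 26 at all 3 sizes, with summed levels of 2.52 to 12.7 CPM in CT-26 tumors and 0.348 to 2.98 CPM in Colon 26 tumors. They were at 0 in all cultures. T cell markers were DE and lower in Colon 26 for 3 of 5 at 400 mm3 and for 0 of 5 at the other sizes in edgeR, where DESeq2 called 0 as well and 0 had an unadjusted p under 0.05. Ptprc was not DE at any size, with 0 calls in DESeq2. Neutrophil markers were DE and lower in Colon 26 for 3 of 3 at 400 and 800 mm3 (median log2 fold changes −3.30 and −2.31) and DE and higher for 1 of 3 at 100 mm3, with sums of 0.928 to 53.9 CPM in CT-26 tumors and 0.502 to 4.60 CPM in Colon 26 tumors. Skeletal muscle markers were DE and lower for 3 of 3 at 800 mm3 (median −7.04), 1 of 4 dendritic cell markers was DE and lower at 400 and at 800 mm3, and 1 of 5 macrophage markers was DE and higher at 400 mm3. The part of these cells in the Ido1 difference was not tested.

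Over tumors, Ido1 and the summed level of the 5 interferon genes went together within each model. In the 12 CT-26 tumors Pearson's r of the log2 levels was 0.912 and Spearman's rho 0.783 (permutation p = 8e-05 and 0.0038, two-sided, adjusted 0.0013 and 0.041 over 32 relations). In the 12 Colon 26 tumors r was 0.829 and rho 0.867 (permutation p = 0.00037 and 0.00057, adjusted 0.0038 and 0.0091). Without the 2 tumors farthest from the median of the interferon level, r was 0.861 in CT-26 and 0.849 in Colon 26. With the mean of each size subtracted, r was 0.951 in CT-26 and 0.861 in Colon 26, and the models were not pooled. With Ptprc, r of Ido1 was 0.587 in CT-26 and 0.601 in Colon 26 (permutation p = 0.043 and 0.041, adjusted 0.1 for both). Kynu had r of 0.770 with the interferon genes and 0.729 with Ptprc in CT-26 (permutation p = 0.0045 and 0.0087, adjusted 0.024 and 0.031). Without the 2 farthest tumors r was 0.659 and 0.421, and rho over all 12 was 0.643 and 0.503 (permutation p = 0.028 and 0.099, adjusted 0.15 and 0.21). In Colon 26, r of Kynu was 0.522 and 0.414 (permutation p = 0.083 and 0.18, adjusted 0.18 and 0.32). Its rho there was 0.741 and 0.531 (permutation p = 0.0078 and 0.081, adjusted 0.063 and 0.2). Of the 32 relations, 13 had an adjusted Pearson p that rounded to 0.1 or lower. Those that round to 0.1 lie slightly above it before rounding and do not pass that limit.

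**Figure D3:**
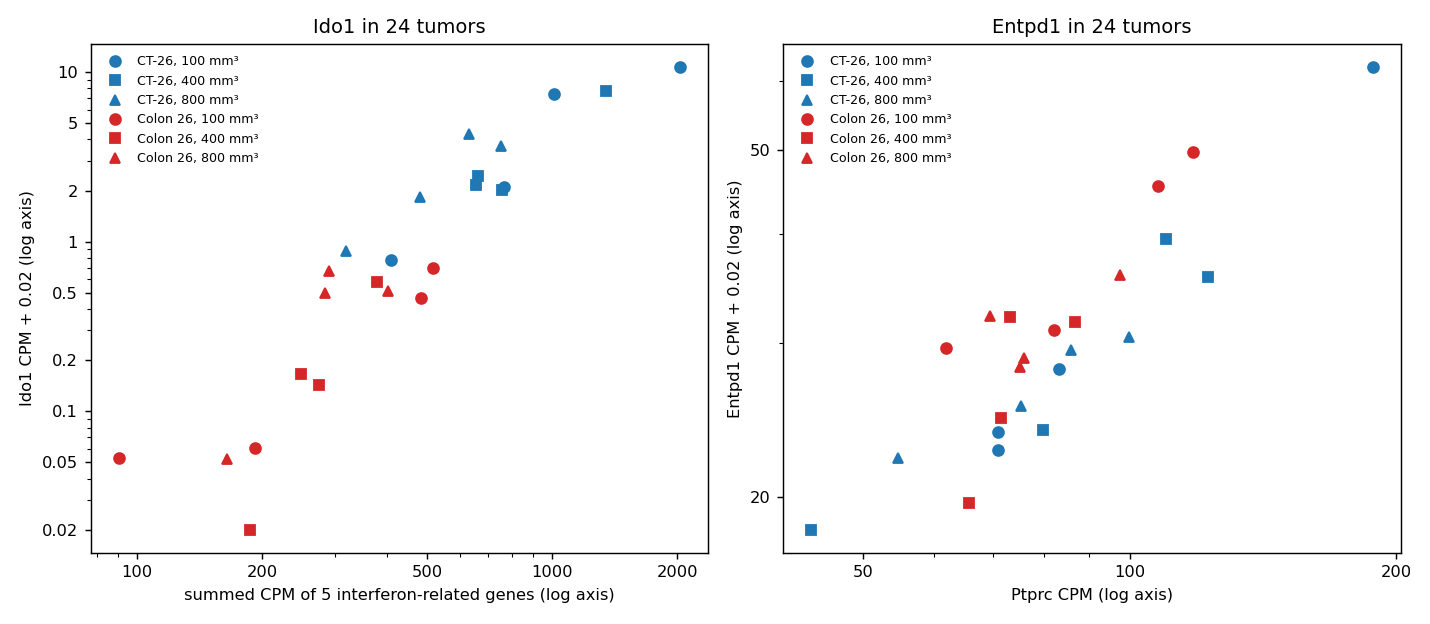
Left, Ido1 CPM + 0.02 against the summed CPM of 5 interferon-related genes, and right, Entpd1 CPM + 0.02 against Ptprc CPM, each point 1 of 24 tumors on log axes (CT-26 blue, Colon 26 red, symbols for nominal size). Points rise from lower left to upper right within each model, with r of 0.912 and 0.829 on the left and 0.962 and 0.842 on the right for CT-26 and Colon 26.

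Nt5e was at 6.72, 8.32, 14.4 and 11.9 CPM in CT-26 tumors of 100 mm3 and at 32.7, 23.7, 25.7 and 26.3 CPM in Colon 26 tumors. At 400 mm3 it was at 14.3, 10.6, 7.16 and 7.49 CPM in CT-26 and at 18.9, 17.3, 29.2 and 25.4 CPM in Colon 26. At 800 mm3 it was at 13.3, 13.7, 14.2 and 10.3 CPM in CT-26 and at 21.9, 14.2, 18.1 and 18.9 CPM in Colon 26. The models did not overlap at 100 and 400 mm3 and overlapped at 800 mm3, where CT-26 tumor 3 was marginally above Colon 26 tumor 2. The log2 fold change was 1.38 ± 0.23 and 1.20 ± 0.25 at 100 and 400 mm3 (edgeR adjusted p = 0.00098 and 0.0046), both DE, and 0.49 ± 0.14 at 800 mm3 (edgeR adjusted p = 0.014), below the fold change threshold. The change of the model difference from 100 to 800 mm3 was −0.90 ± 0.28 by interaction and did not pass the test (edgeR adjusted p = 0.2).

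Of the 3 fibroblast markers, Pdgfra and Col1a1 were DE and higher and Dcn was DE and lower in Colon 26 tumors at all 3 sizes, 800 mm3 included, where Nt5e was not DE. They summed to 538 to 1175 CPM in CT-26 tumors and 823 to 1633 CPM in Colon 26 tumors. In culture the same 3 genes summed to 74.3 to 81.4 CPM in CT-26 and 307 to 329 CPM in Colon 26, mostly Col1a1. Their part in the Nt5e difference was not tested.

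Adora2b was at 4.32, 3.45, 3.34 and 5.64 CPM in CT-26 tumors of 100 mm3 and at 7.64, 5.87, 6.67 and 6.70 CPM in Colon 26 tumors. At 400 mm3 it was at 2.60, 3.75, 1.63 and 1.74 CPM in CT-26 and at 9.37, 3.98, 4.73 and 5.56 CPM in Colon 26. At 800 mm3 it was at 3.83, 3.20, 2.48 and 2.07 CPM in CT-26 and at 8.67, 9.18, 9.17 and 9.07 CPM in Colon 26. The models did not overlap at any size, and the 4 Colon 26 tumors of 800 mm3 lay close together, between 8.67 and 9.18 CPM. The log2 fold change was 0.68 ± 0.18 at 100 mm3 (edgeR adjusted p = 0.013), below the fold change threshold, and 1.29 ± 0.36 and 1.63 ± 0.18 at 400 and 800 mm3 (edgeR adjusted p = 0.017 and 4.8e-05), both DE. At 400 mm3 the call rested on Colon 26 tumor 1, the tumor with 1979 CPM of muscle markers, without which the log2 fold change was 0.96. The change of the difference from 100 to 800 mm3 was 0.94 ± 0.26 and did not pass the test (edgeR adjusted p = 0.16), although without CT-26 800 mm3 tumor 1 it was DE at 1.11 (edgeR adjusted p = 0.064).

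Adora2a went the other way, with levels in CT-26 of 1.91 to 2.82, 1.16 to 2.27 and 1.42 to 1.91 CPM at 100, 400 and 800 mm3, and in Colon 26 of 0.929 to 1.30, 0.723 to 1.42 and 1.15 to 1.39 CPM. The models overlapped at 400 mm3 alone. The log2 fold changes were −0.92 ± 0.19, −0.61 ± 0.28 and −0.47 ± 0.18 (edgeR adjusted p = 0.0039, 0.11 and 0.051), none DE, although without the 3 muscle-rich tumors the value at 100 mm3 was −1.03 and DE (edgeR adjusted p = 0.013). The 2 adenosine receptors of the list thus had opposite signs between the models at all 3 sizes.

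Entpd1, the most abundant member, was at 18.3 to 62.2 CPM in CT-26 tumors and at 19.7 to 49.6 CPM in Colon 26 tumors. Its log2 fold changes of 0.19 ± 0.33, −0.11 ± 0.26 and 0.21 ± 0.11 at the 3 sizes had edgeR adjusted p of 0.67, 0.76 and 0.16. Ada was at 5.15 to 16.3 CPM in CT-26 and 5.29 to 10.7 CPM in Colon 26 tumors, with log2 fold changes of −0.44 ± 0.20, −0.16 ± 0.28 and 0.03 ± 0.14 (edgeR adjusted p = 0.1, 0.66 and 0.88). For neither gene were the models told apart at this depth and replication.

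Tdo2 was low throughout, at 0.0426 to 0.520 CPM in CT-26 tumors and 0.386 to 0.686 CPM in Colon 26 tumors, or 1 to 14 and 10 to 21 counts. At 100 mm3 it passed at the threshold, with a log2 fold change of 1.0 ± 0.35 (edgeR adjusted p = 0.041), but not in DESeq2 (adjusted p = 0.12), and it fell to 0.89, 0.79 and 0.83 without CT-26 tumor 2, CT-26 tumor 4 or Colon 26 tumor 1 and to 0.79 without the muscle-rich tumors. At 400 and 800 mm3 the values were 0.88 ± 0.50 and 0.20 ± 0.26 (edgeR adjusted p = 0.19 and 0.55). Kynu had 0 to 18 counts per tumor, at most 0.620 CPM, and did not pass the filter on low counts in any comparison. DESeq2 and edgeR without the filter tested it between the tumors and called it at 0 of the 3 sizes.

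The fourth comparison followed growth from 100 to 400 and 800 mm3 within each model. No member was DE in any of the 4 comparisons, in edgeR or in DESeq2. Over all genes, edgeR called 0 of 15104 and 0 of 15298 (0%) in CT-26 at 400 and 800 mm3, and 0.0131% of 15241 and 1.33% of 15404 in Colon 26. Unadjusted p under 0.05 was reached by 3356 and 1610 genes in CT-26, and DESeq2 called 150 and 39 there. Neutrophil markers had 3 of 3 at an unadjusted edgeR p under 0.05 in CT-26 at both sizes (median log2 fold changes 3.66 and 3.41), with 0 called by edgeR and 3 and 2 called by DESeq2, and their part in the members' values was not tested. Among the members, 1, 1, 0 and 2 had an unadjusted edgeR p under 0.05 in CT-26 at 400, Colon 26 at 400, CT-26 at 800 and Colon 26 at 800 mm3.

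The 2 members nearest to a change were in Colon 26 from 100 to 800 mm3. Nt5e had a log2 fold change of −0.58 ± 0.13 (edgeR adjusted p = 0.051) and Adora2b of 0.41 ± 0.09 (edgeR adjusted p = 0.056), both under the fold change threshold, where 6.67% of all genes passed the adjusted p alone. Summed muscle markers in these groups were 89.1 to 1033 CPM at 100 mm3 and 0.256 to 0.767 CPM at 800 mm3, and their part in these values was not tested. In CT-26 the largest value was that of Ido1 from 100 to 800 mm3, −0.97 ± 0.75 (edgeR adjusted p = 0.65). The interaction of model and size was not DE for any of the 7 members tested (0.0308% of 16238 genes were DE, 2 members had an unadjusted p under 0.05, and DESeq2 called 0 members).

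**Figure D4:**
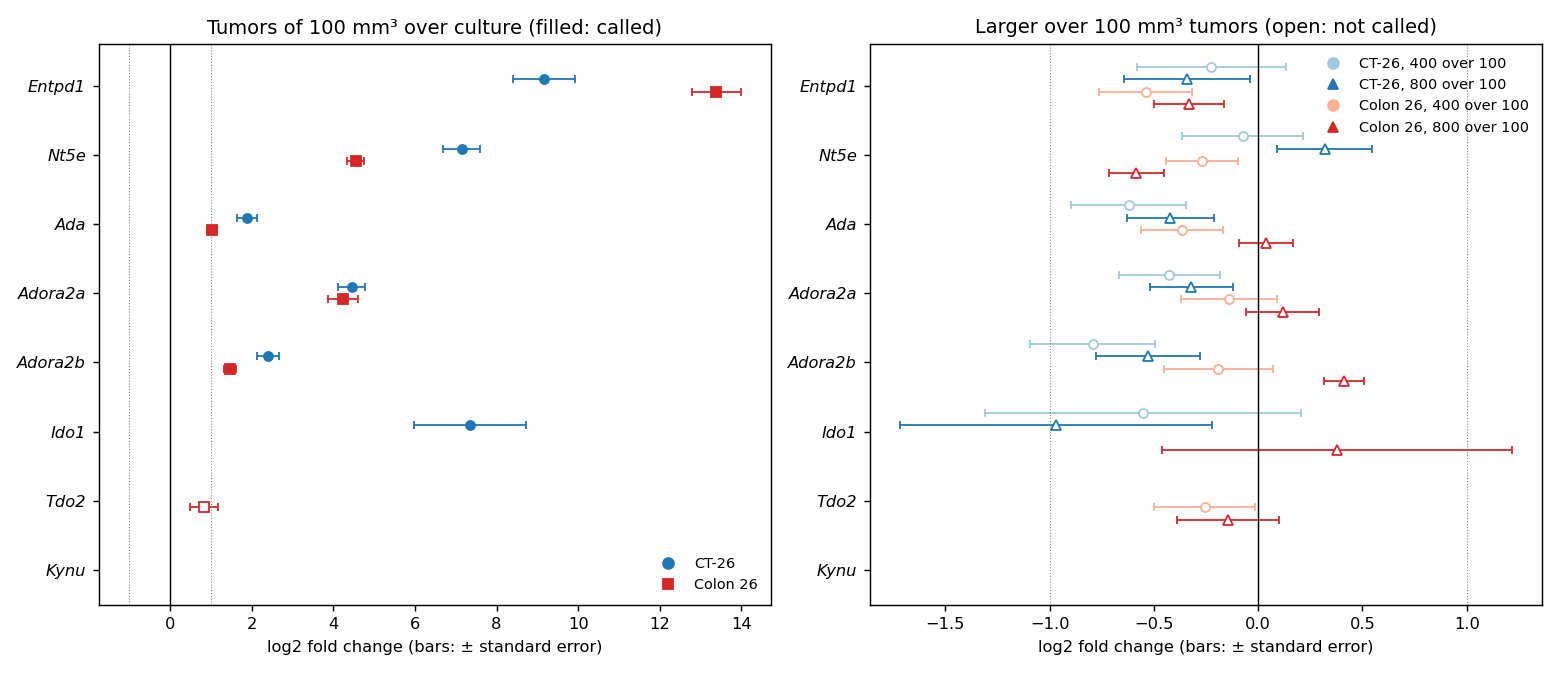
Left, log2 fold change of 100 mm3 tumors over culture, and right, of 400 or 800 mm3 tumors over 100 mm3 tumors, for each tested gene and model with standard errors as bars. All filled (DE) points lie on the left, and fitted values against cultures at or under 3 counts (Entpd1 in both lines, and Nt5e, Adora2a and Ido1 in CT-26) depend on the prior count and are no bounds.

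Within tumor groups, each member was compared with 13502 or 13503 genes of a mean of at least 1 CPM for likeness of pattern, by Pearson's r of log2 CPM over 24 tumors after the group means were subtracted. Entpd1 was most like Mpeg1 (r = 0.937), Adap2 (0.926) and Ptprc (0.925). Ido1 was most like Ly6a (0.940), Batf2 (0.940) and Gm12185 (0.939), Ada like Grn (0.935), Efhd2 (0.918) and Scly (0.915), and Kynu like Ccl5 (0.869), Evl (0.843) and Itgae (0.828). Adora2a was most like Ltbp2 (0.871), Arhgef3 (0.833) and Anpep (0.804), and Adora2b like Ccl9 (0.862), Crem (0.856) and 0610012G03Rik (0.847). Nt5e was most like Adamts7 (0.818), Adamts4 (0.814) and Sox7 (0.760), and Tdo2 like Rmc1 (0.842), Rpl21-ps15 (0.791) and Tsku (0.788). These are the highest of many correlations over libraries that share depth and scaling, and are given as a description.

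Entpd1 followed the leukocyte marker Ptprc within both models. In CT-26 tumors r was 0.962 and rho 0.986 (permutation p = 1e-05 for both, the smallest that 100000 resamples can give, adjusted 0.00032), and r was 0.916 without the 2 tumors farthest from the median Ptprc level. In Colon 26 tumors r was 0.842 and rho 0.678 (permutation p = 0.00047 and 0.019, adjusted 0.0038 and 0.12), and r fell to 0.583 without those 2 tumors. With the mean of each size subtracted, r was 0.960 in CT-26 and 0.820 in Colon 26. Entpd1 had r of 0.750 in CT-26 and 0.600 in Colon 26 with the interferon genes as well (permutation p = 0.0054 and 0.04, adjusted 0.025 and 0.1), and the difference between its relations was not tested. Nt5e showed r of −0.01 in CT-26 and 0.08 in Colon 26 with Ptprc (permutation p = 0.99 and 0.8). For Ada and Adora2a, r with Ptprc was 0.749 and 0.787 in CT-26 (permutation p = 0.007 and 0.0038, adjusted 0.028 and 0.024) but 0.284 and 0.361 without 2 tumors, so that these relations rest on them. In CT-26 tumors of 100 mm3, tumor 2 was highest in Entpd1, Ada, Adora2a, Ido1, Kynu and Ptprc (188 CPM against at most 83.1 CPM in the other 3).

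Other genes of the adenosine pathway were read from a list of 18. In culture, 4 of 8 tested were DE, against 22.9% of all genes: Panx1, a channel that releases ATP, and Cd38, which makes adenosine precursors from NAD, were at least 17.3-fold and at least 16.0-fold higher in Colon 26 (edgeR adjusted p = 9.5e-10 and 1.8e-09). Both were at the floor in CT-26 cultures and passed the filter on low counts only through Colon 26, so this count is a description of the genes that passed. The nucleoside transporter Slc29a2 was higher by 1.18 ± 0.08 and the ATP receptor P2rx4 lower by 1.32 ± 0.05 on the log2 scale in Colon 26 (−1.32, edgeR adjusted p = 5.7e-10 and 8.5e-13). Between tumors of 100 mm3 the list held 0 of 13 DE in edgeR, with 4 at an unadjusted p under 0.05 and 1 called by DESeq2. At 400 mm3 it held 2 of 15, Enpp1, an ectoenzyme that cuts ATP to AMP (1.14 ± 0.36, edgeR adjusted p = 0.029), and the phosphatase Alpl (−1.06 ± 0.27, edgeR adjusted p = 0.012). Enpp1 was not DE without CT-26 tumor 3 (0.87) and Alpl not in 2 of 8 fits that left out 1 tumor, for example without Colon 26 tumor 4 (−0.95). At 800 mm3 it held 1 of 14, the ectonucleotidase Entpd2 (1.83 ± 0.38, edgeR adjusted p = 0.0024). The list's median log2 fold changes were 0.49 in culture and 0.21, 0.15 and 0.33 at the 3 sizes, against 0.01, 0.00, 0.03 and −0.01 over all genes tested.

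From culture to tumor, 9 of 12 genes of the adenosine list rose in CT-26 and 10 of 15 in Colon 26, where 22.2% and 20.8% of all genes were DE and higher. By edgeR 0 fell in either, where 10.1% and 6.11% of all genes did (median log2 fold changes of 2.63 and 2.20, against 0.06 and 0.05 over all genes), and genes at the floor in culture passed the filter only through the tumors. Enpp1 was at least 46.0-fold higher in CT-26 tumors and at least 142-fold higher in Colon 26 tumors than in culture (edgeR adjusted p = 5.4e-07 and 3.5e-07). The nucleoside transporter Slc28a2 rose by 7.21 ± 0.91 on the log2 scale in CT-26, where tumor 2 was at 43.2 CPM and the other 3 at 9.53 to 12.6 CPM (6.37 without tumor 2), and was at least 199-fold higher in Colon 26 tumors (edgeR adjusted p = 1.6e-04 and 4.5e-06). Dpp4, a surface protein that binds adenosine deaminase in humans, was at least 24.4-fold higher there (edgeR adjusted p = 3.1e-06). Panx1 and Cd38, with at most 3 counts in each CT-26 culture, were at least 34.5-fold and at least 65.7-fold higher in CT-26 tumors (edgeR adjusted p = 3.7e-06 and 4.7e-05), whereas in Colon 26, where culture expressed them, they rose by 1.37 ± 0.13 and 2.20 ± 0.22 on the log2 scale (edgeR adjusted p = 1.4e-05 and 1.8e-05).

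Other genes of the tryptophan pathway were read from a list of 21. In culture 2 of 11 tested were DE, against 22.9% of all genes: Kyat3, a kynurenine aminotransferase, was at least 16.6-fold higher in Colon 26 (edgeR adjusted p = 4.7e-09), and the amino acid transporter Slc36a4 was lower in Colon 26 (−1.06 ± 0.06). Kyat3 was at the floor in CT-26 cultures and passed the filter on low counts only through Colon 26, so this count too is a description. In tumors 3 genes of the list were DE in edgeR at all 3 sizes. Kyat3 was higher in Colon 26 by 1.85 ± 0.27, 2.18 ± 0.38 and 1.75 ± 0.29 on the log2 scale (edgeR adjusted p = 0.00047, 0.0018 and 0.00058), with 0.155 to 0.789 CPM in CT-26 tumors and 1.47 to 3.11 CPM in Colon 26 tumors. Ido2, the paralog of Ido1, was lower in Colon 26 with log2 fold changes of −2.87 ± 0.52, −3.0 ± 0.36 and −2.23 ± 0.19 (edgeR adjusted p = 0.0017, 0.00024 and 8.7e-06). Every CT-26 tumor, at 4.37 to 23.3 CPM of Ido2, was above every Colon 26 tumor, at 0.657 to 2.45 CPM, while the cultures of both lines held 1.23 to 2.02 CPM. Wars, the tryptophanyl-tRNA synthetase and a known interferon-induced gene, was lower in Colon 26 with log2 fold changes of −1.39 ± 0.20, −1.36 ± 0.12 and −1.12 ± 0.10 (edgeR adjusted p = 0.00048, 5.3e-05 and 1.2e-05), at 139 to 306 CPM against 69.1 to 93.4 CPM. Of 16, 16 and 17 genes tested, 4, 3 and 3 were DE, the fourth at 100 mm3 being Cyp1b1, a target of the aryl hydrocarbon receptor (1.27 ± 0.30, edgeR adjusted p = 0.0069). The list's medians were 0.02 in culture and −0.02, −0.31 and −0.17 at the 3 sizes.

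Ahr, the aryl hydrocarbon receptor that senses kynurenine, also named after its values were seen, had log2 fold changes of opposite sign in culture (0.75 ± 0.04) and in tumors (−0.79 ± 0.10, −0.91 ± 0.25 and −0.82 ± 0.18), all at an adjusted p of at most 0.017 in edgeR and all below the fold change threshold. From culture to tumor, 6 of 15 genes of the tryptophan list rose and 1 fell in CT-26, and 8 of 18 rose and 4 fell in Colon 26, with medians of 0.30 and 0.26. Over all genes 22.2% were DE and higher and 10.1% DE and lower in CT-26, and 20.8% and 6.11% in Colon 26. Slc7a8, a neutral amino acid transporter, was at least 248-fold higher in CT-26 tumors and at least 433-fold higher in Colon 26 tumors (edgeR adjusted p = 3.2e-06 and 1.2e-08). Kmo, kynurenine monooxygenase, was at least 7.03-fold and at least 14.8-fold higher, and Cyp1b1 at least 14.7-fold and at least 57.2-fold higher (edgeR adjusted p = 0.00022 and 1.7e-05 for Kmo, 5.3e-05 and 9e-07 for Cyp1b1). Named after their values were seen, the 4 that fell in Colon 26 were Wars (−1.65 ± 0.10), the receptor target Tiparp (−1.32 ± 0.08), Ahr (−1.18 ± 0.05) and the tryptophan transporter subunit Slc7a5 (−1.10 ± 0.04), and the 1 that fell in CT-26 was the aminotransferase Kyat1 (−1.39 ± 0.23). During growth neither list held a DE gene in edgeR or in DESeq2 in either model, with 2 to 4 genes of a list at an unadjusted edgeR p under 0.05 in each comparison.

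**Figure D5:**
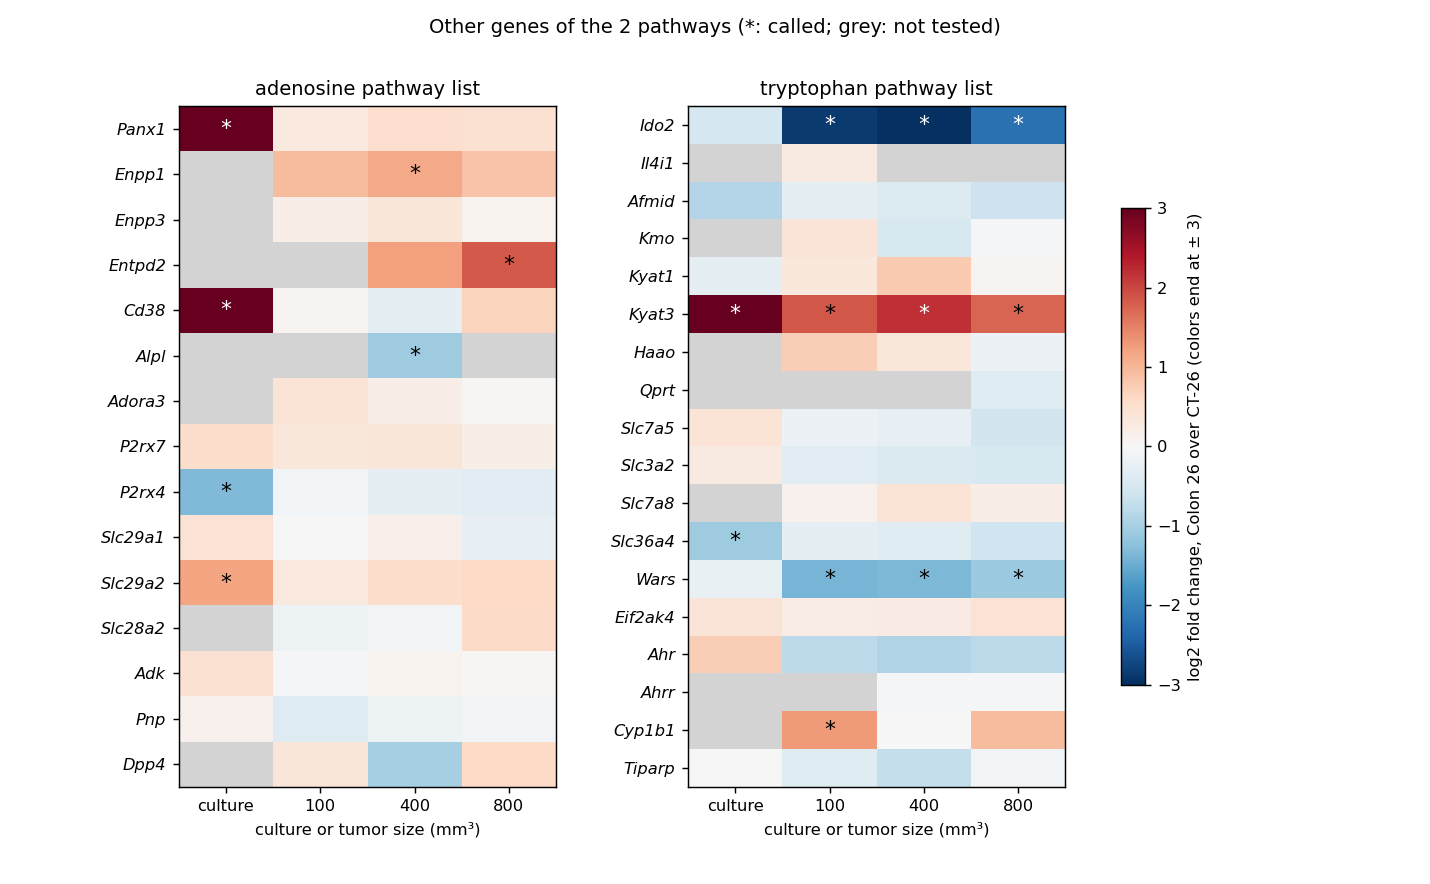
Log2 fold change of Colon 26 over CT-26 for the genes of the adenosine and tryptophan lists tested in at least 1 of these comparisons (rows) in culture and at each tumor size (columns), with asterisks for DE genes and grey for genes not tested. Ido2 and Wars are lower in Colon 26 at all 3 tumor sizes, and Kyat3 is higher in culture and at all 3 sizes.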

How the data were processed

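Poly-A mRNA was sequenced as paired reads, and the authors deposited estimated counts and FPKM per gene for each library (Array Studio, Ensembl release 78). The aligner, genome build and strand handling are not given in the sources used here. The deposited estimated counts were not whole for 23.0% of nonzero values and were rounded, since edgeR needs counts, whereas whole counts had been assumed when the tests were chosen. Symbols were found for 97.7% of gene IDs. Each comparison was fitted on its own libraries with edgeR 4.0.16 in R 4.3.3 (TMM, filterByExpr, quasi-likelihood test, Benjamini-Hochberg adjustment over all genes tested), with the thresholds of adjusted p (0.1) and log2 fold change (1) that the submitters used with DESeq2 (version 1.24.0 in their processing notes). The standard error was taken from the F statistic. A group with at most 3 counts in every library was set at that floor per library, and folds given as at least are the other group's mean over it. They hold for that mean and not for each library. As 3 counts are the upper limit for a count of 0 alone, the floor does not fully cover counting error in groups that held 1 to 3 counts. CPM used TMM factors over all 30 libraries. The deposited FPKM served for the order of genes within a group. The fits were tested on simulated data. DESeq2 1.42.0 and limma 3.58.1 served as alternatives, together with other scalings, filters and thresholds and leaving out each library. The named genes were the 8 members, the 3 genes most like each of them over the 24 tumors, and list genes called in culture, called at all 3 sizes or among the up to 3 largest calls of another comparison, and exceptions are marked. The members and lists were chosen with earlier results of these data known. Replicates were numbered in accession order. Labels mention checkpoint antibodies for the study in general, and tumors were taken as they are labelled, by model and size. A gene of the interferon list is not reported here and entered no list value.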

Additional observations from a re-analysis of the deposited data

Results flagged for a closer look

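Among 48 tests of the members in groups of 4 tumors, 2 tumors stood apart from the rest of their group by Dixon's criterion, and chance gives about 1 such case in 20 groups. Entpd1 was at 62.2 CPM in CT-26 100 mm3 tumor 2, against 22.6 to 28.0 CPM in the other 3, in the tumor that was also highest in Ptprc. Ido1 was at 7.75 CPM in CT-26 400 mm3 tumor 2, against 2.0 to 2.40 CPM in the other 3.

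For 3 of 7 members the difference between the models was not the same in tumors of 100 mm3 as in culture by the adjusted p of the interaction term alone, which 51% of all genes passed. The term (tumor minus culture) was −2.66 for Nt5e (edgeR adjusted p = 0.005), −0.91 for Ada and −0.98 for Adora2b (edgeR adjusted p = 0.016 for both). Only Nt5e was DE (17.6% of all genes were), the other 2 being under the fold change threshold in edgeR. The Nt5e term rests on CT-26 cultures of 1 to 2 counts, so that its size depends on the prior count.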

How the results depend on the processing

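No paired analysis was possible because the labels carry no replicate numbers. Of 1414 member values under alternatives, 1339 kept their direction and their side of the thresholds, 28 passed them newly, 23 no longer passed them and 24 changed sign. Only members that passed the filter in the main edgeR fit of a comparison entered. Calls of Kynu, or of Ido1 from Colon 26 culture to tumor, are therefore not among the 28. Values at the adjusted p alone (65 kept and 10 newly passed) reuse the main fit and could not change direction. With limma on log2(FPKM + 1), a scale that compresses low values by construction, 0 members were DE between the models in culture, 1 at 400 mm3 and 3 from Colon 26 culture to tumor, and the Nt5e interaction was 0.83 (adjusted p = 0.01). From culture to tumor, DESeq2, edgeR with no filter and the fit on all 30 libraries each called 7 members in both lines, Kynu in both and Ido1 in Colon 26 among them, and leaving out single libraries gave 6 in CT-26 and 4 to 7 in Colon 26. With the adjusted p alone, 5, 4, 2 and 3 members passed for the models at 100 and 800 mm3, for Colon 26 growth to 800 mm3 and for the interaction of model and tissue. That interaction had 2 DE members with no filter, 3 in DESeq2 and 3 without the muscle-rich tumors (an alternative chosen after seeing the data), and 1 to 3 with single libraries left out, while the interaction of model and size had 0 to 1. Values under the threshold that changed sign were Entpd1 at 100 mm3 (−0.0837) and Adora2a in Colon 26 growth to 400 mm3 (0.0564) without the muscle-rich tumors, and Entpd1 for model and size (−0.0023) with no filter.

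With single libraries left out, values near 0 ranged across it for Entpd1 (−0.28 to 0.0658 between models at 400 mm3, −0.39 to 0.22 and −0.49 to 0.11 in CT-26 growth to 400 and 800 mm3, −0.45 to 0.16 for model and size), Ada (−0.0524 to 0.13 between models at 800 mm3, −0.0638 to 0.10 in Colon 26 growth to 800 mm3), Ido1 and Nt5e in CT-26 growth to 400 mm3 (−1.25 to 0.0523 and −0.31 to 0.13), Tdo2 in Colon 26 growth to 800 mm3 (−0.23 to 0.0288) and Adora2a for model and tissue (−0.63 to 0.28). In that interaction Adora2b was DE in 6 such fits, Ada without CT-26 100 mm3 tumor 3 (−1.06) and Entpd1 without CT-26 100 mm3 tumor 2 (4.48). The cause of these changes was not tested. Depth limits Ido1 in Colon 26, Tdo2 and Kynu, at 0 to 25 counts per tumor.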
